A study of Mus musculus with 27 samples.

Results

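The fragments described here are the pieces of artificial target RNA that begin or end exactly where the mouse slicer protein MIWI is expected to cut. MIWI, the product of Piwil1, was purified by its Strep tag from testes of Strep-Miwi knock-in mice together with its own piRNAs and incubated for 2 hours at 35 °C with a pool of in vitro transcribed RNAs. The Perfect pool held 15000 RNAs, each fully complementary to a 32-nt piRNA sequence, and the Bulge pool held 15000 matching RNAs with mismatches opposite piRNA bases 10 and 11. Each pool was sequenced as 2 small RNA libraries (Perfect replicates 1 and 2, Bulge replicates 1 and 2) out of 27 samples in the series. The pools also differed in the common sequence behind the target and in the sequences their reads were mapped to, so these differences and the mismatch itself cannot be told apart. The labels do not say which tag line gave the protein, whether it was on beads or eluted, or whether 2 libraries of a pool came from separate reactions, so the spread between them may be technical. Reactions without MIWI were not analysed here.

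The deposited table sums reads over all targets of a pool by strand, read start and read end, in RPM, reads scaled to a fixed library total. It has 1204 such classes, 809 of them on the plus strand, which is the strand of the target RNA. In its numbering, as read here, position 0 lies opposite piRNA base 1 and position -9 opposite base 10. The RNA spans positions -33 to 20, that is 54 nt: 2 positions before the target, the 32 target bases from -31 to 0, and 20 positions of the common sequence. A cut opposite bases 10 and 11 falls between -10 and -9. The members are the 16 plus-strand fragments that start at -9 (ends 5 to 20, 15 to 30 nt long) and the 10 that end at -10 (starts -33 to -24, 15 to 24 nt long), 26 of 809 in all. No fragment in the table is shorter than 15 nt, so these are all the ends that each side could have had. The rule used the position alone, not the values. The sequences of the single targets were not used here, so fragments are given by their coordinates on the RNA.

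PIWI proteins are the Argonautes of the germ line. They hold a piRNA by its 5′ and 3′ ends and, when a target pairs with it well enough around the centre, the RNase H-like fold of the PIWI domain cuts the target at a fixed distance from the piRNA's 5′ end. The cut leaves a 5′ phosphate on the downstream piece, the kind of end to which small RNA adapters are joined, and a 3′ hydroxyl on the upstream piece. In this assay the upstream piece keeps the beginning of the T7 transcript, which T7 RNA polymerase leaves as a triphosphate. In mouse testes MIWI carries pachytene piRNAs and its slicer activity is known to be needed for making sperm.

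Downstream fragments, those that start at -9, were abundant with the Perfect pool and rare with the Bulge pool. Their sum was 19665 and 15929 RPM in Perfect replicates 1 and 2, against 79.6 and 45.2 RPM in Bulge replicates 1 and 2. The means were 17797 ± 2642 RPM in Perfect and 62.4 ± 24.3 RPM in Bulge (SD, n = 2 each), a ratio of 285. The groups did not overlap, and the exact two-sided permutation p was 0.33, the smallest that 2 against 2 libraries allow. In reads, at the library totals given under the processing, the Bulge values correspond to 1158 and 615 reads.

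As a share of all plus-strand RPM the downstream fragments made up 18.5% and 11.8% in the Perfect libraries and 0.298% and 0.229% in the Bulge libraries. The 95% Wilson intervals were 18.4 to 18.6% and 11.8 to 11.9% in Perfect, and 0.282 to 0.316% and 0.212 to 0.248% in Bulge. These take every read as independent and cover no more than counting error. The reads carry no molecular identifiers, so the intervals may be too narrow even for that. The 2 Perfect libraries differed from each other by far more than the width of these intervals. They also differed in the class placed from -33 to 20, at 28074 RPM in replicate 1 and 59838 RPM in replicate 2. The libraries are listed with a read length of 50 nt, shorter than the 54 nt of this class. How such ends were placed was not examined here.

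Position -9 stood out sharply from its neighbours with the Perfect pool. Summed over all ends, starts at -10 gave 3476 and 2910 RPM and starts at -8 gave 2430 and 2057 RPM in the Perfect libraries, so that -9 was 6.66 and 6.41 times the mean of both neighbours. With the Bulge pool the same ratio was 1.13 and 1.37, with 80.4 and 47.0 RPM at -10 and 60.0 and 18.8 RPM at -8. This ratio is taken within a library and does not depend on how libraries are scaled. It averaged 6.54 ± 0.174 in Perfect and 1.25 ± 0.169 in Bulge (SD, n = 2 each; exact permutation p = 0.33).

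Over a wider window, starts at -9 exceeded every other start within 5 positions in both Perfect libraries. Start positions from -14 to -11 gave 1678 to 3218 RPM in Perfect replicate 1 and 1650 to 2988 RPM in replicate 2, values 6.11 to 11.7 and 5.33 to 9.65 times lower than at -9. On the other side, starts at -7 and -6 gave 2187 and 1857 RPM in replicate 1, while starts at -5 and -4 gave 3487 and 3533 RPM. In replicate 2 these 4 positions gave 1853, 1495, 2654 and 2641 RPM. Among the 39 start positions other than -33, the first base of the RNA, -9 ranked 1 in both Perfect libraries, at 33.4 and 24.5 times the median position. In the Bulge libraries it ranked 29 and 28, at 0.653 and 0.412 times the median position, where the highest such start was position 3, in the common sequence.

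A limma fit over the summed RPM of all 40 start positions, on log2(RPM + 0.1), gave a log2 fold change of 8.20 ± 0.33 (SE) for -9, Perfect over Bulge, with a Benjamini-Hochberg adjusted p of 0.000277. In that fit 33 of 40 start positions were called higher in Perfect (82.5%) and 2 lower, a split of 16 and 4 when each library was scaled to equal plus-strand RPM and of 21 and 4 when libraries were scaled by the trimmed mean of log ratios between fragments. The log2 fold change of -9 ranked 2 of 40, after position -3 at 8.49 ± 1.39, where Bulge replicate 2 held only 3.30 RPM. Start -3 gave 4891 and 3689 RPM in Perfect replicates 1 and 2, next after -9 among starts other than -33. The remaining starts from -10 to -1 had log2 fold changes of 5.69 (start -10) to 7.57 (start -4). A large fold change was therefore not particular to -9.

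The far end of the downstream fragments was nearly always the last base of the RNA in the Perfect libraries. The 30-nt fragment from -9 to 20 holds 10 target bases and the whole common sequence. It reached 18705 and 15035 RPM in the Perfect libraries and 9.55 and 1.39 RPM in the Bulge libraries, where these are 139 and 19 reads. Its log2 fold change was 12.11 ± 0.93 (limma adjusted p = 0.00489), the largest of the 26 fragments. It made up 95.1% and 94.4% of all fragments starting at -9 in Perfect, against 12.0% and 3.09% in Bulge, with Wilson intervals of 10.3 to 14.0% and 1.99 to 4.78% for the Bulge libraries.

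The 29-nt and 28-nt fragments, 1 and 2 bases short of that end, were the next to be looked at. The reason was that Bulge classes from -33 were themselves placed at several ends near 20. At 52 to 54 nt these classes are longer than the listed read length of 50 nt. From -33, the Bulge libraries held 4242 and 1733 RPM to position 20, 4270 and 2368 RPM to position 19, and 2480 and 3452 RPM to position 18. The Perfect libraries held 28074 and 59838 RPM to position 20, 2623 and 5729 RPM to position 19, and 545 and 1139 RPM to position 18. The pools thus differed in end placement for these classes too. The fragment from -9 to 19 had 353 and 346 RPM in Perfect and 24.3 and 7.34 RPM in Bulge. The fragment from -9 to 18 had 75.3 and 71.2 RPM in Perfect and 9.69 and 4.70 RPM in Bulge. Taking ends 18 to 20 together, downstream fragments reached 19133 and 15452 RPM in Perfect and 43.5 and 13.4 RPM in Bulge. These were 97.3% and 97.0% of the class in Perfect and 54.7% and 29.8% in Bulge. The difference in this share between pools was 54.9 points, against 87.2 points for end 20 alone.

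Downstream fragments that stopped inside the common sequence were a minor part with Perfect targets. Ends from 5 to 17 summed to 532 and 477 RPM in Perfect and 36.0 and 31.7 RPM in Bulge. The 27-nt fragment ending at 17 led them, with 137 and 154 RPM in Perfect against 0.550 and 0 RPM in Bulge. A second group lay at 21 and 22 nt. The fragment ending at 11 had 101 and 65.9 RPM in Perfect against 0.687 and 0 RPM in Bulge. The fragment ending at 12 had 88.5 and 60.4 RPM in Perfect against 1.31 and 0 RPM in Bulge. For these 3 the Perfect libraries were high and the Bulge libraries held at most 19 reads each.

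Ends 13 and 14 lay lower, between 15.0 and 26.2 RPM in Perfect and between 0 and 0.619 RPM in Bulge. The fragment ending at 15 had 64.0 and 66.2 RPM in Perfect and 0.825 and 0 RPM in Bulge, and the one ending at 16 had 47.6 and 46.4 RPM in Perfect and 0.962 and 0.808 RPM in Bulge. At 6 of the 16 ends Bulge replicate 2 held no read. A count of 0 there allows up to 0.220 RPM, or 3 reads.

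Among the 5 shortest downstream fragments no difference passed the test on the deposited scale, and their values went both ways. The fragment ending at 5 had 9.38 and 7.38 RPM in Perfect against 1.82 and 0 RPM in Bulge (log2 fold change 4.26, limma adjusted p = 0.0602). The one ending at 8 had 9.67 and 8.92 RPM in Perfect against 2.89 and 5.07 RPM in Bulge (log2 fold change 1.26, limma adjusted p = 0.0820). The one ending at 6 had 3.84 and 3.23 RPM in Perfect against 3.57 and 0.954 RPM in Bulge, so its groups overlapped. The 17-nt fragment ending at 7 had 6.33 and 5.23 RPM in Perfect against 10.2 and 10.6 RPM in Bulge, and the 19-nt fragment ending at 9 had 7.54 and 6.00 RPM in Perfect against 8.93 and 13.5 RPM in Bulge. For each, both Perfect libraries lay below both Bulge libraries (log2 fold changes -0.85 and -0.70, limma adjusted p = 0.152 and 0.266). Both were called lower in Perfect with equal plus-strand RPM (log2 fold changes -3.21 and -3.06, limma adjusted p = 0.000926 and 0.00173), and end 7 also with the trimmed mean of log ratios (-1.68, limma adjusted p = 0.0272). The 20-nt fragment ending at 10, with 17.4 and 12.2 RPM in Perfect against 3.16 and 0.661 RPM in Bulge, was called higher in Perfect (log2 fold change 3.22, limma adjusted p = 0.0254), but not with equal plus-strand RPM (0.93, limma adjusted p = 0.266). In the Bulge libraries these 2 ends held 12.9% and 23.6% (end 7) and 11.2% and 29.9% (end 9) of all fragments starting at -9. The commonest end of Bulge fragments was 19 in replicate 1 and 9 in replicate 2, against 20 in both Perfect libraries.

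Taken over its whole distribution, the RPM-weighted mean end of fragments starting at -9 was 19.8 in both Perfect libraries and 14.3 and 11.4 in the Bulge libraries. The groups did not overlap (difference 6.93 positions, exact permutation p = 0.33), and the Bulge replicates differed from each other more than the Perfect replicates did. The median end was 20 in both Perfect libraries and 18 and 9 in the Bulge libraries. Neighbouring starts behaved much like -9 in this respect. For starts from -14 to -4 the share reaching position 20 was 81.7 to 97.5% in Perfect replicate 1 and 84.6 to 96.3% in replicate 2, against 7.34 to 22.2% in Bulge replicate 1 and 0.156 to 8.33% in Bulge replicate 2.

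Of the 16 downstream fragments, all passed the filter of 1 RPM in 2 libraries, and limma called 11, all higher in Perfect. Those ending at 11 and at 13 to 17 were below 1 RPM in both Bulge libraries. They passed the filter through the Perfect libraries alone, so their direction was fixed by it. With no filter, 11 of the 16 were again called, all higher in Perfect, against 237 of 809 plus-strand fragments. Over all 791 plus-strand fragments tested, 39.2% were called, 30.2% higher and 8.98% lower in Perfect. The median log2 fold change was 5.14 over the 16 and 0.76 over all fragments tested. The values of both Perfect libraries lay above both Bulge libraries for 13 of the 16 and below them for 2, against 55.1% and 20.6% of all fragments tested. The 5 that were not called ended at 5 to 9. Leaving out Perfect replicate 1 or 2 removed those ending at 11 and at 13 to 17 and left 10 fragments past the filter. Fewer were then called, as was so over all fragments. The median log2 fold change was 3.17 or 3.47 over the 10, against 0.50 or 0.65 over all fragments tested. With libraries scaled to equal plus-strand RPM, 9 of the 16 were called higher in Perfect and 2 lower, against 12.4% and 48.2% of all fragments. With scaling by the trimmed mean of log ratios, 11 were called higher and 1 lower, against 22.2% and 16.5%.

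An excess over neighbouring starts was present at every end that could be compared in the Perfect libraries, but its size differed between ends. For 15 ends a start at -9 could be set against starts at -10 and -8 with the same end. The ratio was above 1 at all 15 ends in both Perfect libraries, with a median of 4.22 and 4.20. It ran from 2.32 (end 10) to 8.46 (end 17) in replicate 1 and from 1.93 (end 9) to 6.96 (end 17) in replicate 2. In Bulge replicate 1 it had a median of 1.09 and did not pass 1.80. In Bulge replicate 2 a ratio could be formed at 13 ends, with a median of 1.29 and values up to 6.00 on few reads.

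Upstream fragments, those that end at -10, also exceeded their neighbours with the Perfect pool, but their level was far lower. Their sum was 2485 and 1696 RPM in the Perfect libraries, against 297 and 298 RPM in the Bulge libraries. The means were 2090 ± 559 RPM in Perfect and 297 ± 0.508 RPM in Bulge (SD, n = 2 each; ratio 7.03; exact permutation p = 0.33). Neighbouring ends in Perfect replicates 1 and 2 gave 602 and 644 RPM at -11 and 447 and 457 RPM at -9. In Bulge they gave 290 and 248 RPM at -11 and 288 and 262 RPM at -9, close to the value at -10.

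End -10 was thus 4.74 and 3.08 times the mean of both neighbouring ends in Perfect and 1.03 and 1.17 times in Bulge. The ratio averaged 3.91 ± 1.17 in Perfect and 1.10 ± 0.0985 in Bulge (SD, n = 2 each; exact permutation p = 0.33). Among the 37 end positions before 18, -10 ranked 1 in Perfect replicate 1 and 2 in replicate 2, after position 17 at 1777 RPM. In the Bulge libraries it ranked 16 and 14, near the median position.

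In the limma fit over 40 end positions the log2 fold change at -10 was 2.79 ± 0.26 (adjusted p = 8.03e-16), where 21 of 40 positions were called higher in Perfect (52.5%) and 6 lower. This split turned to 1 higher and 34 lower with equal plus-strand RPM and to 6 and 16 with the trimmed mean of log ratios. The adjusted p rests on a spread pooled over the positions. The share of all plus-strand RPM did not separate the pools: upstream fragments held 2.34% and 1.26% in Perfect and 1.11% and 1.51% in Bulge, so the groups overlapped (exact permutation p = 0.67). With libraries scaled to equal plus-strand RPM the log2 fold change at -10 was 0.40 (limma adjusted p = 0.303). The excess over the neighbouring ends is formed within a library and is the same on all these scales.

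The upstream fragments mostly began at the first base of the RNA. The 24-nt fragment from -33 to -10 holds the 2 leading bases and 22 target bases, and with the 30-nt downstream fragment it makes up the 54 nt of the RNA. It had 2334 and 1569 RPM in Perfect and 266 and 272 RPM in Bulge, with a log2 fold change of 2.83 ± 0.41 (limma adjusted p = 0.00748). It made up 93.9% and 92.6% of all fragments ending at -10 in Perfect and 89.7% and 91.3% in Bulge. The groups differed little here, and the RPM-weighted mean start was -32.8 and -32.7 in Perfect and -32.5 and -32.6 in Bulge.

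The 9 upstream fragments that began further in summed to 151 and 126 RPM in Perfect and 30.5 and 25.99 RPM in Bulge. The 21-nt fragment from -30 was the most abundant of them, with 34.9 and 42.8 RPM in Perfect and 5.98 and 5.29 RPM in Bulge. The 23-nt fragment from -32 had 28.8 and 24.9 RPM in Perfect and 2.41 and 1.76 RPM in Bulge, and its log2 fold change of 3.64 ± 0.42 (limma adjusted p = 0.00537) was the largest of the upstream class. The fragment from -28 had 26.5 and 16.5 RPM in Perfect and 3.78 and 2.13 RPM in Bulge.

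Fragments from -31, -29 and -27 lay between 8.77 and 14.3 RPM in Perfect and between 2.13 and 4.18 RPM in Bulge. The shortest 3, from -26, -25 and -24, had 3.93 to 9.45 RPM in Perfect and 1.32 to 4.04 RPM in Bulge. The smallest difference was that of the 15-nt fragment from -24, with 5.16 and 3.93 RPM in Perfect against 3.09 and 1.76 RPM in Bulge (log2 fold change 0.92 ± 0.46, limma adjusted p = 0.168). All 10 passed the filter, 7 were called higher in Perfect, against 30.2% of all fragments tested, and 3 were not called. Their median log2 fold change was 1.92. At all 10, both Perfect libraries lay above both Bulge libraries, against 55.1% of all fragments tested. Leaving out Perfect replicate 1 or 2 lowered the number called, as was so over all fragments. The median log2 fold change of the 10 was then 1.64 or 2.20, against 0.50 or 0.65 over all fragments tested. With equal plus-strand RPM limma called none of the 10 (1 at an unadjusted p under 0.05), against 12.4% called higher and 48.2% lower over all fragments. With the trimmed mean of log ratios 4 were called, all higher in Perfect, against 22.2% of all fragments.

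The excess over neighbouring ends was uneven across the starts. At start -33 the fragment ending at -10 was 5.16 and 3.15 times the mean of those ending at -11 and -9 in Perfect, and 1.10 and 1.24 times in Bulge. At start -30 the Perfect ratios were 4.24 and 6.57, and at start -28 they were 3.97 and 3.25. At start -26 they were 0.933 and 1.00, so no excess was seen there. Of 9 starts that could be compared, 3 in Perfect replicate 1 and 5 in replicate 2 had a ratio above 2, against 0 and 1 in the Bulge libraries.

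The downstream and upstream sums were unequal, in opposite directions in the 2 pools. In Perfect replicates 1 and 2 the downstream sum was 7.91 and 9.39 times the upstream sum, whereas in the Bulge libraries it was 0.268 and 0.152 times. The mean ratio was 8.65 ± 1.05 in Perfect and 0.210 ± 0.0822 in Bulge (SD, n = 2 each; exact permutation p = 0.33). Both Bulge sums lay near those of neighbouring positions, at 1.13 and 1.37 times (start -9) and 1.03 and 1.17 times (end -10). The Bulge ratio therefore cannot be read as the recovery of 2 pieces of a cut. In Perfect the level of neighbouring positions was not subtracted from either sum. How far the different 5′ ends of the pieces, their lengths or their mapping enter this ratio was not tested.

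Set against the classes placed from -33 to ends 18 to 20, the downstream fragments amounted to 0.629 and 0.239 in Perfect and 0.00724 and 0.00598 in Bulge. Those classes summed to 31242 and 66706 RPM in Perfect and 10991 and 7553 RPM in Bulge. They are longer than the listed read length of 50 nt, so this sum may not be a measure of intact RNA. The upstream fragments amounted to 0.0796 and 0.0254 of that sum in Perfect and 0.0270 and 0.0394 in Bulge, so for them the groups overlapped.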

How the data were processed

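Per the labels, reads of the 4 slicing libraries were mapped to the sequences of their own pool. The authors deposited RPM values summed over all targets of a pool. The submitters' processing notes list Salmon 1.3.0 and, without versions, DESeq2, DESeq, featureCounts, STAR, Bowtie and cutadapt, giving none of them a role for this table, and what the RPM total counts is not given in the sources used here. In each library the smallest value is what 1 read would be worth at a whole-number total of 13001408 to 14549950 reads, taken here as the depth. Only 62.5 to 63.2% of non-zero values in Perfect and 92.4 to 92.7% in Bulge are whole reads (within 0.01), so no count model was run; reads behind intervals were rounded. The table held 28.2 and 28.3% of this total in Perfect and 3.44 and 2.77% in Bulge, of which 10.6 and 13.5 points and 2.67 and 1.97 points were plus-strand, so RPM and shares of the plus strand differ in scale.

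Fragments with at least 1 RPM in 2 libraries were tested with limma 3.58.1 in R 4.3.3 (trend on) on log2(RPM + 0.1), unscaled. Benjamini-Hochberg adjustment was over all plus-strand fragments, at FDR 0.05. Fold changes of low values depend on the added 0.1 RPM. With 1 RPM added instead, the median log2 fold change of the downstream fragments went from 5.14 to 4.03. The procedure was tested on simulated data, with a replicate spread set in advance and not fitted to these libraries. That test does not show how the calls hold at the spread seen here. Sums were compared with scipy 1.17.1 by exact two-sided permutation. Named fragments were the 10 of each class with the highest mean and those with the largest and smallest fold change; the others of the 26 are given as values or ranges for completeness. Members and tests were chosen with earlier results of these data known. Alternatives were pseudocount, filter, scaling, positions, replicate block and leaving out each library.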

Additional observations from a re-analysis of the deposited data

Results flagged for a closer look

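The minus strand, which no comparison above uses, held 161745 ± 19123 RPM in the Perfect libraries and 7811 ± 194 RPM in the Bulge libraries (SD, n = 2 each; exact permutation p = 0.33, the smallest possible). It was taken up because it lay above the level of the mismatched pool, and its origin was not tested.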

How the results depend on the processing

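The sum, share and excess over neighbouring starts at -9 stayed higher in Perfect under every alternative run, with a log2 fold change of 5.82 to 8.61 over settings. For end -10 the direction depended on the scale. As a share of both strands the difference was -0.229 points (Perfect 0.741%, Bulge 0.970%). The log2 fold change was 1.94 with the trimmed mean of log ratios, still called. It was 0.40 with equal plus-strand RPM, no longer called. The median start of upstream fragments differed by 0 between pools. Scaling shifted the median of all fragments from 0.76 to -0.06 (trimmed mean of log ratios) or -1.56 (equal plus-strand RPM), and the split of 239 fragments called higher and 71 lower became 175 and 130 or 98 and 382. Of 310 fragments called, the 10 RPM filter left 177 and equal plus-strand RPM gave 480, and leaving out a library gave 92 to 528. Downstream fragments called ranged from 3 to 14 with a library left out, upstream ones from 2 to 9. Both ranges moved with the number called over all fragments, lowest without a Perfect replicate and highest without a Bulge replicate. The number of downstream fragments tested also changed, from 10 without a Perfect replicate to 16 without a Bulge replicate. Not all of the 14 were higher in Perfect. The ranges therefore cannot be read as a result about these fragments alone. Upstream calls fell from 7 to 4 with the 10 RPM filter, which tested 4, to 4 with the trimmed mean, and to 0 with equal plus-strand RPM. Start positions called went from 35 to 20 with equal plus-strand RPM and ranged from 17 to 38 with a library left out. With equal plus-strand RPM single fragments turned to lower in Perfect, none called: from -9 to 6 (-1.41) and 8 (-1.09), and to -10 from -31 (-0.81), -29 (-0.19), -27 (-0.65), -26 (-0.76), -25 (-1.33) and -24 (-1.40). With a library left out the fragment from -9 to 6 ranged from -0.021 to 1.78. Beyond the fewer fragments or libraries of a setting, the cause was not tested. With the replicate block 286 of 791 fragments were called, 12 downstream and 5 upstream; same-numbered libraries share only a number (correlation of deviations 0.03). Low counts limit the Bulge fragments ending at 11 to 17, read fewer than 20 times each. In Bulge replicate 2 the fragments from -9 to 5, 6, 10 and 20 also held only 0, 13, 9 and 19 reads.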
